A study of Mus musculus with 165 samples.

Results

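*Gfi1* encodes a zinc finger repressor of transcription that is needed for the formation of neutrophils. The protein carries a short SNAG domain through which it brings the demethylase Kdm1a, its partner Rcor1 and histone deacetylases to DNA, and it is known for holding down genes of the monocyte and macrophage programme. Its paralog *Gfi1b* reads a nearly identical DNA motif and is known mainly from erythroid cells and megakaryocytes, and each of the proteins has been described to hold down both genes. The rows of *Gfi1* and *Gfi1b*, chosen by name, are 2 of the 36255 genes in the table of normalized counts, and they are followed here over all time points of both cytokine conditions.

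The samples are PUER cells, a single myeloid progenitor line from mice that lack PU.1 (*Spi1* -/-), so all groups share the *Spi1* deletion. The line expresses a PU.1 protein joined to the hormone-binding part of the estrogen receptor, and this protein becomes active when 4-hydroxytamoxifen (OHT) is added. Undifferentiated cells grew in IL3 at 5 ng/ml without OHT (3 libraries). IL3-OHT cells stayed in IL3 and received OHT at 200 nM (81 libraries, 27 time points from 1h to 168h), a treatment that drives macrophage differentiation. GCSF 0h cells were held for 48 h without OHT in medium in which GCSF at 10 ng/ml replaced IL3 (3 libraries). GCSF-OHT cells then received OHT at 100 nM, still without IL3 (78 libraries, 27 time points), which drives neutrophil differentiation. The dose of OHT and the cytokine therefore cannot be told apart, nor can the presence of GCSF and the absence of IL3. Part of the medium was exchanged for medium with fresh OHT at 40h, 88h and 136h, and cells that had attached were detached with trypsin at time points after 24h. Each time point came from a plate of its own, so that time point and plate cannot be told apart, and the replicates were wells, so that the p-values below measure the spread between wells of 1 line.

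The libraries form 56 groups, 53 of them with 3 replicates, while GCSF-OHT 96h, 112h and 152h have 2. Libraries held 14600246 to 33147945 reads on genes (median 21960878), and a floor of 3 reads equals a normalized count of 1.96 to 5.51. The authors excluded IL3-OHT 96h and 144h, and these enter no test except where they are named. The labels were checked against marker genes. A marker is given as above 3 reads when any library of the cells named had more than 3. All 11 neutrophil markers were above 3 reads, and their summed normalized count ran from 335572 to 342565 in undifferentiated cells, from 461446 to 519145 at GCSF 0h, from 437612 to 955242 in GCSF-OHT and from 201323 to 447212 in IL3-OHT. All 8 macrophage markers were above 3 reads in undifferentiated and in OHT-treated cells, and 5 of 8 were at GCSF 0h. Their sum is mostly the lysozyme gene *Lyz2*. It ran from 16492 to 17335, from 57403 to 64271, from 71348 to 1.33e+06 and from 18666 to 963168 in the same order of groups. Its median was higher in GCSF-OHT (607151) than in IL3-OHT (438763), so this sum did not mark out the macrophage condition. The paper also counts *Lyz2* among genes of mature neutrophils. Of markers of other cells, 5 of 8 mast cell and basophil markers, 3 of 6 lymphoid markers, 1 of 4 stromal markers and 2 of 10 erythroid and megakaryocytic markers, the globin genes *Hba-a1* and *Hbb-bt*, had no read in undifferentiated cells. Of the erythroid and megakaryocytic markers, 5 were above 3 reads in undifferentiated cells, 4 at GCSF 0h and 7 in the libraries of each OHT condition, mostly through *Tal1*, with sums of 1538 to 4535 over all groups. In bulk RNA, fewer cells of a type and less RNA per cell cannot be told apart.

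On the GRCm38 build, *Gfi1* (ENSMUSG00000029275) lies on the minus strand of chromosome 5 from 107716657 to 107726036 with 3187 exonic bases, and *Gfi1b* (ENSMUSG00000026815) on the minus strand of chromosome 2 from 28609450 to 28621982 with 1830. Stretches before a start in RefSeq's GRCm38.p6 annotation are shown because the genes differed so widely in level. For *Gfi1b* this start, 28621982, is the end of the gene given above, while the *Gfi1* start, 107725805, lies inside the gene given above, and a second RefSeq start of *Gfi1*, at 107724343, is not shown. The *Gfi1b* stretch is chr2:28621983-28622232 and the *Gfi1* stretch chr5:107725806-107725954, the shorter of them, both given 5′ to 3′ on the minus strand and both outside annotated exons. Capitals mark matches to the motifs searched.
Gfi1b: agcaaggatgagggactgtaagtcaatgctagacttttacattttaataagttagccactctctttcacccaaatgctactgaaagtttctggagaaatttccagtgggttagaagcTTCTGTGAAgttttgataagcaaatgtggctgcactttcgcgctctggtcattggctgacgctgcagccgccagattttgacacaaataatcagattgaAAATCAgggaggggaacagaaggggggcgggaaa
Gfi1: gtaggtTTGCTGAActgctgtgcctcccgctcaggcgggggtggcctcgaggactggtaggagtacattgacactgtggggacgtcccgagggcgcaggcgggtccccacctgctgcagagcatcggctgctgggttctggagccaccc
Motifs were searched on both strands of the 250 bases before each start, the second *Gfi1* start included. The letters AAATCA, which hold the core that Gfi1 and Gfi1b read, occurred 1 time before *Gfi1b* and were not found before *Gfi1*. The palindrome of STAT factors, TTCNNNGAA, occurred 1 time before *Gfi1b*, and the pair of C/EBP sites, TTGCNNAA, 1 time before *Gfi1*. The PU.1 core GAGGAA was found before neither gene. Of 32851 annotated starts, AAATCA was present in 12.4%, TTGCNNAA in 9.56%, TTCNNNGAA in 7.02% and GAGGAA in 23.3%, and a match describes letters only.

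*Gfi1b* was near or at 0 in all libraries while *Gfi1* was abundant. Any read of *Gfi1b* was counted in just 11 libraries, and these held 15 reads in total, against 639164 reads of *Gfi1* (351 to 10800 per library). Of these 11 libraries, 9 held 1 read, 1 held 2 and 1 held 4, the last being replicate 2 of IL3-OHT 4h with a normalized count of 4.33. It was the one library at or above the floor of 3 reads. All 3 undifferentiated and all 3 GCSF 0h libraries had 0 reads of *Gfi1b*, which allows up to 3 reads in each. Per kilobase of exon, the mean normalized count over all libraries was 1148 for *Gfi1* (147.5 to 3000.3) and 0.0491 for *Gfi1b* (0 to 2.37). With *Gfi1b* set in each library to the larger of its value and 3 reads, *Gfi1* per kilobase was at least 67.2-fold higher in the library with the smallest ratio (median 661, highest 2067). *Gfi1b* reached a normalized count of 5 in no library and was therefore filtered out, so *Gfi1* is the member that was tested, among 17414 genes.

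Changes were tested with limma on log2(normalized count + 1), with p-values adjusted by Benjamini-Hochberg over all genes of a comparison. A gene is called changed when the adjusted p is below 0.05 and the log2 difference exceeds 0.58 in size. The share of all tested genes so called is given beside most comparisons.

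*Gfi1* was higher after the GCSF pre-treatment, which also removed IL3, before any OHT was added. Undifferentiated cells held normalized counts of 1057, 1019 and 1027 (1034 ± 20.3, SD, n = 3), and GCSF 0h cells 8342, 9562 and 9445 (9116 ± 673, SD, n = 3). The lowest GCSF 0h library was thus far above the highest undifferentiated one, and the ratio of the means was 8.81. On the log2 scale the difference was 3.14 (SE 0.06, limma adjusted p = 1.18e-77), at rank 21 from the top of 17414 genes. In this comparison 33.7% of genes were called, 13% higher and 20.7% lower. GCSF 0h held the highest mean of all 56 groups, and none of its libraries overlapped with any other group. The neutrophil marker sum was higher at GCSF 0h as well, and its part in the level of *Gfi1* was not tested.

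**Figure D1:**
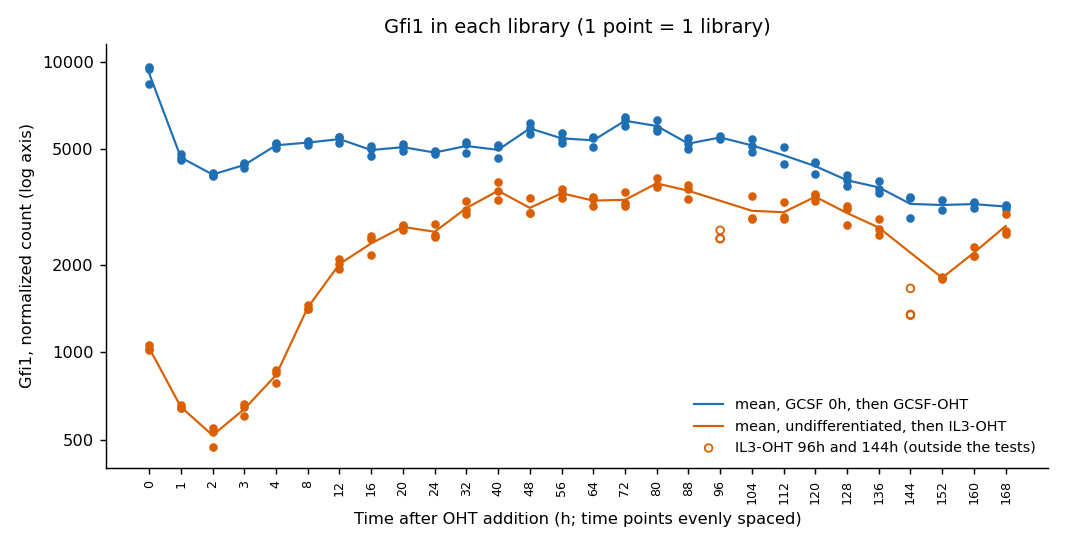
Normalized count of *Gfi1* on a log axis against time after OHT addition, with 1 point per library, evenly spaced time points and lines through the means of GCSF 0h with GCSF-OHT (blue) and of undifferentiated cells with IL3-OHT (orange). Both courses dip within 2h. The IL3-OHT mean reaches 3593 at 40h and then goes down and up, with 3138 at 48h and 3809 at 80h. Every GCSF-OHT library lies above all IL3-OHT libraries of its time point. Open circles are IL3-OHT 96h and 144h, which are outside the tests.

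Within 1h of OHT, *Gfi1* fell in both conditions. In GCSF it went from 9116 to libraries of 4591, 4641 and 4805 at 1h (mean 4679), and all 3 lay below the lowest GCSF 0h library. The log2 change was -0.96 (SE 0.06, limma adjusted p = 1.96e-28), and 6.05% of genes were called in this step, 4.01% higher and 2.03% lower. The 2h libraries stood at 4127, 4082 and 4053 (4087 ± 37.2, SD, n = 3), which is 0.448 of the level at GCSF 0h. In IL3 the 1h libraries held 642, 645 and 657 (mean 648), below all 3 undifferentiated libraries. This change was -0.67 (SE 0.06, limma adjusted p = 9.77e-18), in a step where 4.42% of genes were called, 2.81% higher and 1.61% lower. At 2h the IL3-OHT libraries held 532, 550 and 470 (518 ± 42.0, SD, n = 3), the lowest mean of all groups and 0.5004 of the undifferentiated level. Although the 2 courses began 3.14 apart on the log2 scale, the difference between their changes was -0.29 at 1h (limma adjusted p = 0.0173) and -0.15 at 2h (adjusted p = 0.234), neither past the fold threshold.

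In IL3, *Gfi1* then climbed. The 4h libraries held 871, 785 and 845, and the 8h libraries 1451, 1412 and 1410, without overlap. This step was 0.77 (SE 0.06, limma adjusted p = 5.69e-22; 10.5% of genes called), and with the first hour it makes the 2 of 25 steps between consecutive IL3 time points that were called, against 3.65% of all genes and steps pooled. With the adjusted p alone, 17 of these steps passed. The mean was 2011 at 12h, 2596 at 24h and 3593 at 40h. It then went down and up, with 3138 at 48h, 3524 at 56h and 3344 at 72h. It was highest at 80h, where libraries held 3750, 3976 and 3700 (3809 ± 146.8, SD, n = 3). These overlapped the libraries of 40h (3337 to 3856). The mean at 80h was 7.36 times that at 2h, and it was above undifferentiated cells by 1.88 on the log2 scale (SE 0.06, limma adjusted p = 3.31e-55). Against undifferentiated cells, *Gfi1* was called lower at 1h, 2h and 3h and higher at 20 time points from 12h on (26.7% of genes and time points pooled). At 4h and 8h its differences of -0.31 and 0.46 were within the fold threshold.

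Late in the IL3 course, among the tested time points, the mean was 2685 at 136h, with libraries of 2870, 2536 and 2650, and 1803 at 152h, with libraries of 1795, 1821 and 1792. The groups did not overlap, and the difference of -0.57 (SE 0.06, limma adjusted p = 6.03e-15; 16% of genes called) lay just inside the fold threshold. With upper-quartile scaling it was -0.66 and without replicate 2 it was -0.62, and both would be called. At 168h the libraries held 2986, 2556 and 2611 (2718 ± 234, SD, n = 3), above undifferentiated cells by 1.39 (SE 0.06, limma adjusted p = 8.79e-43; 25.4% of genes called, 10.2% higher and 15.2% lower).

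In GCSF the course after the first hours was flatter than in IL3, and it ended below its own start. From 4087 at 2h the mean went to 5152 at 4h and 6257 at 72h, where libraries held 6008, 6314 and 6448. The ratio of 72h to 2h was 1.53. Of 27 steps between consecutive GCSF time points, the first hour was the single one called (1.81% of genes and steps pooled), and 8 steps passed with the adjusted p alone. Late in the course the mean was 6006 at 80h, 3691 at 136h and 3170 ± 51.5 (SD, n = 3) at 168h, where libraries held 3183, 3214 and 3114. All 3 lay below every GCSF 0h library, and the change over the OHT course was -1.52 (SE 0.06, limma adjusted p = 1.6e-46; 24.8% of genes called). They also lay above every undifferentiated library, with a difference of 1.62 (SE 0.06, limma adjusted p = 2.16e-49; 39.1% called, 15.5% higher and 23.6% lower). Against GCSF 0h, *Gfi1* was called lower at 26 of 27 time points (15.4% of genes and time points pooled), the exception being 72h with -0.54. Tested over a whole course with limma's F test, *Gfi1* was among the 47.7% of genes called in GCSF (adjusted p = 9.59e-54) and among the 69.7% called in IL3 (adjusted p = 2.56e-97).

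**Figure D2:**
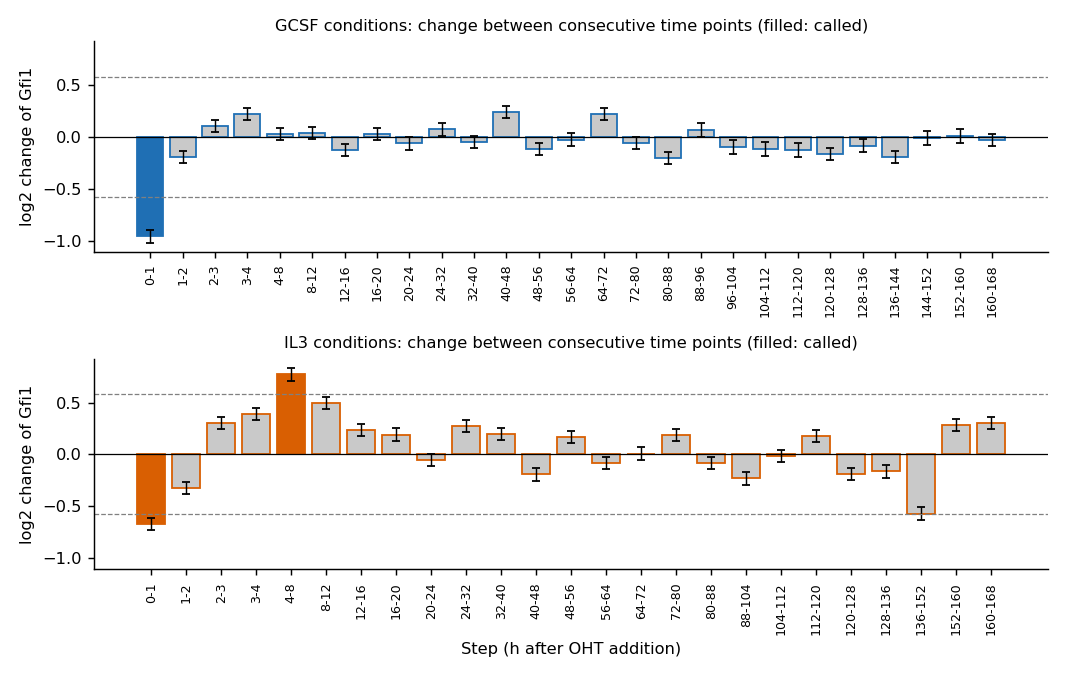
Change of *Gfi1* between consecutive time points on the log2(normalized count + 1) scale in GCSF and in IL3, with standard errors and filled bars for the called steps. Among the tested steps, the first hour is the largest downward one of both courses, -0.96 in GCSF and -0.67 in IL3, and the step from 4h to 8h in IL3 is the largest upward one, 0.77.

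All groups were also ordered by their mean. The 23 highest means were GCSF groups, and the highest IL3-OHT mean, 3809 at 80h, took the next place. Within a group, the coefficient of variation was 4.36% in the median (0.870% to 12.5%). Of 55 pairs of neighbours in this order, 45 overlapped in their libraries and cannot be told apart by them. The 10 pairs that did not overlap lay mostly at the low end of the order, among IL3-OHT 1h to 12h, 152h and 160h and undifferentiated cells. At the high end they set off GCSF 0h, GCSF-OHT 48h and GCSF-OHT 1h from the group next below.

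At each of the 25 shared time points in the tests, all GCSF-OHT libraries of *Gfi1* lay above all IL3-OHT libraries, whereas such a separation held for 25.1% of genes and time points pooled. It held also at 96h and 144h. The difference over the mean of the 25 time points was called in a comparison where 24.5% of genes were, 9.34% higher and 15.1% lower in GCSF. The log2 difference was 2.98 at 2h, a ratio of 7.90 between the means, and then 1.88 at 8h, 0.91 at 24h and 0.47 at 40h. After 40h it went up and down, with 0.91 at 48h, 0.90 at 72h, 0.35 at 120h and 0.83 at 152h. It was called at 18 of 25 time points (22.7% of genes and time points pooled) and passed the adjusted p alone at 40h, 88h, 120h, 128h, 136h, 160h and 168h. At 168h it was 0.23 (SE 0.06, limma adjusted p = 0.000714), and the lowest GCSF-OHT library, 3114, stood close above the highest IL3-OHT library, 2986.

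The change since the addition of OHT differed between the cytokines at 21 of 25 time points, always in the direction of a lower value in GCSF (21.5% of genes and time points pooled). This value equals the difference between the cytokines at a time point minus the 3.14 between GCSF 0h and undifferentiated cells, so it carries no information beyond those values. It was -0.51 at 4h, within the fold threshold, then -1.25 at 8h, -2.48 at 80h and -2.91 at 168h (SE 0.08, limma adjusted p = 2.77e-58). The marker sums changed over the same hours, and their part in the changes of *Gfi1* was not tested.

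**Figure D3:**
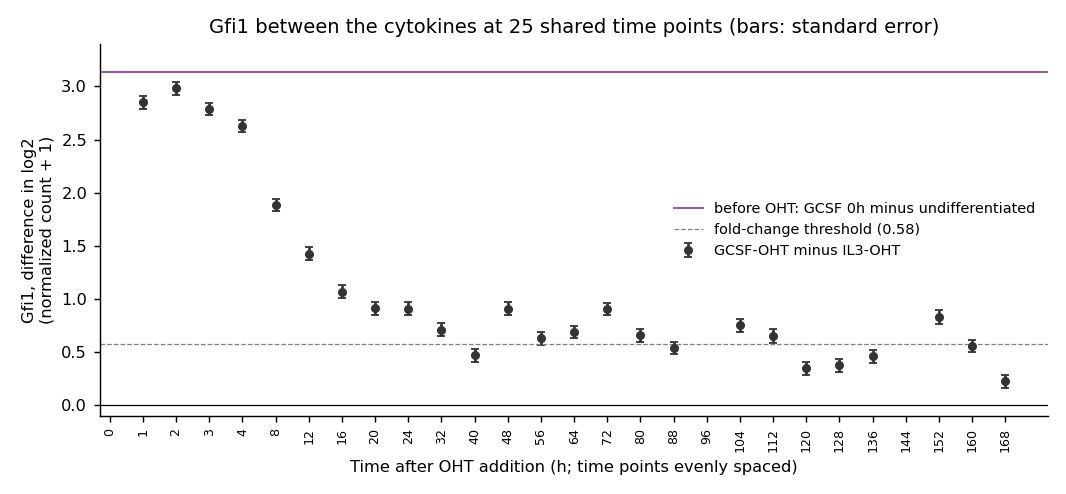
Difference of *Gfi1* between GCSF-OHT and IL3-OHT on the log2(normalized count + 1) scale at the 25 shared time points, with standard errors, a line at the difference of 3.14 between GCSF 0h and undifferentiated cells and a dashed line at the fold threshold of 0.58. The difference is 2.98 at 2h and 0.47 at 40h, and then varies between 0.91 at 48h and 0.23 at 168h.

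The excluded IL3-OHT groups were read beside their neighbours in a fit that included them. At 88h the IL3-OHT mean was 3594, at 96h the libraries held 2457, 2627 and 2462, and at 104h the mean was 3067. The change from 88h to 96h was -0.51 (limma adjusted p = 2.25e-12), within the fold threshold. At 144h the libraries held 1340, 1349 and 1658, below all 3 libraries of 136h, and this change of -0.89 (limma adjusted p = 2.79e-26) was called. Both steps are the first after an exchange of medium with fresh OHT, and 20% and 25.8% of genes were called in them. After the exchange at 40h, *Gfi1* changed by -0.19 in IL3 (limma adjusted p = 0.041; 0.649% of genes called). In GCSF the changes after the 3 exchanges were 0.25, 0.07 and -0.19, and none was called, in steps where 0.856%, 5.21% and 3.37% of genes were. *Egr2*, described below, had a mean of 193 at 88h, 555 at 96h and 248 at 104h in IL3, and of 109 at 136h, 472 at 144h and 235 at 152h, so it was high at the excluded time points, where *Gfi1* was low. Members of its list differed here. At 88h, 96h and 104h in IL3, *Egr1* had means of 5030, 9254 and 4296, but *Nab2* had means of 3491, 2703 and 4127. The list was not counted at these steps, and a link to *Gfi1* was not tested.

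Genes that Gfi1 has been described to repress were followed as a list of 13, of which 12 were tested, *Meis1* being too low. After the GCSF pre-treatment 8 were lower and 4 were not called (median -1.06, against -0.09 over all genes, of which 20.7% were lower and 13% higher). The mRNA of *Egr2*, a zinc finger factor of the macrophage programme, went from 145.2, 146.5 and 169.8 normalized counts in undifferentiated cells to 9.32, 12.0 and 13.3 at GCSF 0h, without overlap. Its log2 change was -3.64 (SE 0.22, limma adjusted p = 1.35e-30). The related *Egr1* fell by 3.50 and *Nab2*, a cofactor that binds both Egr proteins, by 2.90. *Id2*, an inhibitor of helix-loop-helix factors, fell by 1.21, *Csf1*, the macrophage growth factor, by 1.37, *Cdkn1a*, a cell cycle inhibitor, by 0.91 and *Socs3*, a feedback inhibitor of GCSF signalling, by 0.89. *Csf1r*, the receptor for Csf1, fell by 1.80 but had at most 8 reads in a library of either group. Over the alternatives, 0 to 1 members were higher and 8 were lower.

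In the first hour of OHT, when *Gfi1* fell, 5 of the 12 rose in GCSF and none was lower, where 4.01% of all genes were higher and 2.03% lower. In IL3, 2 rose and 2 fell, where 2.81% of all genes were higher and 1.61% lower, and the difference between the counts was not tested. *Egr2* went to 35.06, 55.05 and 62.43 at 1h in GCSF, above all GCSF 0h libraries (2.02, SE 0.22, limma adjusted p = 1.34e-13), and was back at a mean of 18.9 at 2h. In IL3 it went to 367, 417 and 427, above all undifferentiated libraries (1.39, SE 0.22, limma adjusted p = 2.23e-07), and to a mean of 65.4 at 2h. *Egr1* rose by 1.56 in GCSF and by 1.44 in IL3. *Nab2* rose by 0.68 in GCSF and fell by 0.97 in IL3, while *Csf1* (1.01) and *Id2* (1.36) rose in GCSF. *Csf1r* fell by 1.36 in IL3, again with at most 8 reads, and 1 to 2 members were lower there over the alternatives.

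At the end of the IL3 course *Gfi1* was higher and so were 6 members of the list. At 168h against undifferentiated cells, 6 members were higher, 4 were lower and 2 were not called (median 0.57, against -0.03 over all genes, of which 10.2% were higher and 15.2% lower), and over alternatives the counts were 5 to 6 higher and 3 to 4 lower. Higher were *Egr1* (1.33), *Egr2* (1.11), *Id2* (1.57), *Cdkn1a* (0.89) and *Irf8*, a factor of monocyte formation (2.27, at most 30 reads), besides *Hoxa9* at 7 reads or fewer. Lower were *Nab2* (-0.58, only just past the fold threshold), *Csf1* (-1.45), *Socs3* (-1.16) and *Elane* (-1.91). *Elane*, the gene of neutrophil elastase, is also among the neutrophil markers. At GCSF-OHT 168h against undifferentiated cells, 1 was higher and 7 were lower (1 to 2 and 6 to 7 over the alternatives; 15.5% and 23.6% of all genes). In GCSF against IL3 over the shared time points, 3 were higher, *Csf1* (1.41), *Csf1r* (0.94) and *Elane* (0.86), and 7 were lower, led by *Egr1* (-2.96) and *Egr2* (-2.92), where 9.34% of all genes were higher and 15.1% lower.

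Likeness of course was described for the list by Pearson's r. Over the 54 means of condition and time point, which share the line, the plates and the cytokine difference, Pearson's r of log2 values with *Gfi1* was -0.46 for *Egr2*, but it was -0.18 over the 28 GCSF means and 0.57 over the 26 IL3 means. For *Nab2* r was -0.71 in GCSF and 0.01 in IL3. *Csf1* was at 0.05 over all means, at -0.57 in GCSF and at -0.94 in IL3, and *Socs3* at -0.69, -0.43 and -0.71. *Irf8* (0.20 and 0.62), *Hoxa9* (0.64 and 0.82) and *Bax*, a gene of cell death (0.53 and 0.64), had positive values in GCSF and in IL3. Of these, *Irf8* had at most 32 reads in a library and *Hoxa9* at most 14. The values describe time courses and are not tests.

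**Figure D4:**
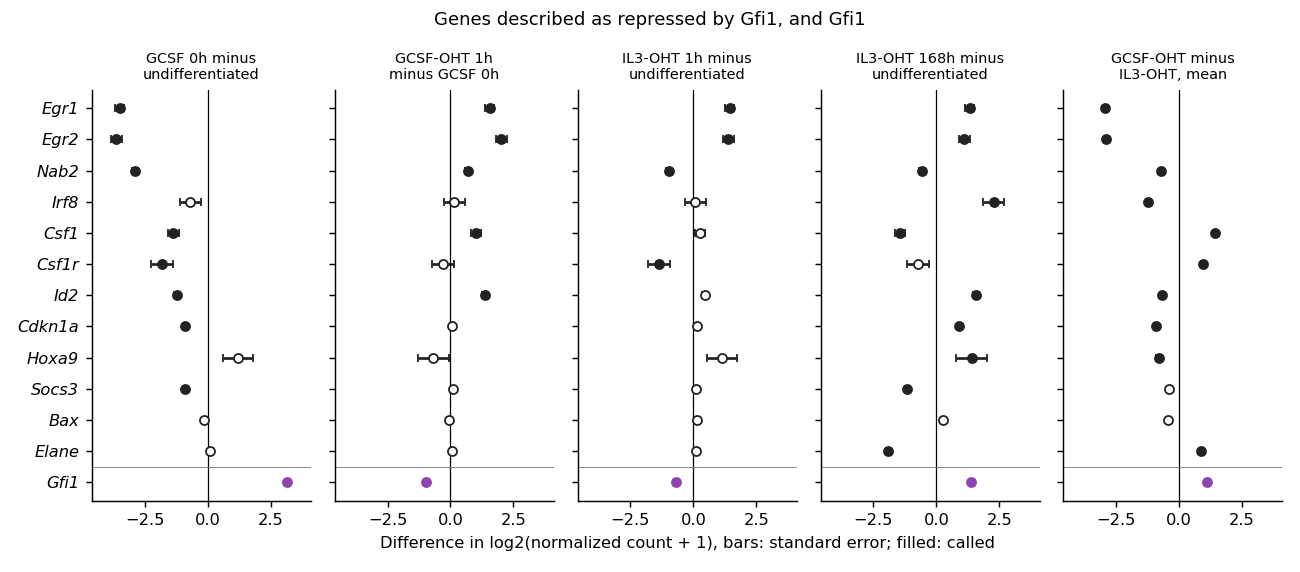
Differences in log2(normalized count + 1) with standard errors for the 12 tested genes described as repressed by Gfi1, and for *Gfi1* itself in the last row, in 5 comparisons, with filled points for called genes. *Egr1* and *Egr2* lie at -3.50 and -3.64 after the GCSF pre-treatment, where *Gfi1* is at 3.14, but at 1.33 and 1.11 at IL3-OHT 168h, where *Gfi1* is at 1.39.

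The corepressors that Gfi1 recruits were followed as another list. Of 12 partners 11 were tested, *Runx1t1* being too low. After the GCSF pre-treatment 1 was higher, 1 was lower and 9 were not called (13% and 20.7% of all genes higher and lower), the former being the histone methyltransferase gene *Ehmt2* (0.85) and the latter *Phf21a*, a member of the Kdm1a complex (-0.85). *Kdm1a* itself had means of 1149 in undifferentiated cells and 1074 at GCSF 0h (-0.10, SE 0.05, limma adjusted p = 0.0894). Its lowest mean was 873 at GCSF-OHT 1h and its highest 1582 at IL3-OHT 2h, while *Gfi1* ranged from 518 to 9116. At 168h against undifferentiated cells, 1 partner was higher and 2 were lower in GCSF, and 1 was higher and none lower in IL3, *Ehmt2* being the higher one in both (0.86 and 0.90; 15.5% and 23.6% of all genes were higher and lower in GCSF, 10.2% and 15.2% in IL3). *Rcor1* differed by -0.18 and *Hdac1*, a histone deacetylase, by 0.26 after the pre-treatment, both within the fold threshold. In GCSF against IL3 over the shared time points, the single partner called was *Ajuba*, an adaptor protein, which was lower in GCSF (-0.98). *Ehmt2* followed *Gfi1* in IL3 (r = 0.93 over 26 means) but not in GCSF (r = -0.03 over 28).

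Among 6 factors described upstream of *Gfi1*, 2 were higher and none was lower after the GCSF pre-treatment (2 to 3 and 0 to 1 over the alternatives; 13% and 20.7% of all genes). *Ikzf1*, the gene of the lymphoid and myeloid regulator Ikaros, rose from 916 to 2862 (1.64, SE 0.05, limma adjusted p = 2.79e-60), and *Trp53*, which encodes p53, by 0.66. *Stat3*, the main signal carrier of the GCSF receptor, differed by 0.57 and *Cebpa*, a factor of granulocyte formation, by 0.50, both just within the fold threshold. In GCSF against IL3 over the shared time points *Stat3* (1.04), *Ikzf1* (0.99) and *Cebpa* (0.71) were higher, and 3 were not called (9.34% of all genes higher). At 168h against undifferentiated cells, *Ikzf1* and *Stat3* were higher in GCSF (2.60 and 1.44), where 15.5% of all genes were higher and 23.6% lower. In IL3 *Ikzf1* was higher (1.22) and *Spi1* (-0.84) and *Cebpa* (-0.80) were lower, against 10.2% of all genes higher and 15.2% lower. In the first hour of OHT none of the 6 was called in either condition (6.05% of all genes in GCSF and 4.42% in IL3). *Spi1*, in whose row reads of the gene and of the PU.1 transgene were not told apart here, differed by 0.33 after the pre-treatment, -0.04 in the first hour in GCSF and -0.16 in the first hour in IL3. Its r with *Gfi1* was -0.03 in GCSF and -0.81 in IL3.

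Of the 4 receptor chains for the cytokines, *Csf3r*, the GCSF receptor, was higher after the pre-treatment together with *Gfi1*. It went from 1022, 1103 and 1173 in undifferentiated cells to 5266, 5847 and 6040 at GCSF 0h, without overlap (2.38, SE 0.06, limma adjusted p = 7.42e-63). It was also the single chain called in GCSF against IL3 (3.35; 24.5% of all genes called). At 168h against undifferentiated cells, 3 chains were higher and 1 lower in GCSF, and 2 were higher and 2 lower in IL3 (0 to 2 lower over the alternatives; shares of all genes as for the corepressors). In GCSF the levels of *Csf3r* and *Gfi1* parted later. *Csf3r* there reached 10424 at 168h, its mean at 2h being 3944, while *Gfi1* was at its GCSF low at 168h. In IL3 *Csf3r* had its highest mean, 1238, at 80h, where *Gfi1* had its IL3 high too. Its r with *Gfi1* was -0.31 in GCSF and 0.48 in IL3.

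The 7 other SNAG-domain zinc finger genes went the opposite way to *Gfi1* where they were called after the pre-treatment. Of 6 tested, 4 were lower and 2 were not called, where 20.7% of all genes were lower. *Snai3* fell from 1063 to 310 (-1.78, SE 0.12, limma adjusted p = 1.52e-27), *Snai1*, a repressor of epithelial genes, by 2.27, *Scrt1* by 1.62 and *Insm1* by 3.02, the last with at most 11 reads. In GCSF against IL3, *Snai3* (-1.70), *Snai1* (-1.56) and *Insm1* (-0.69) were lower (15.1% of all genes). At 168h, 1 was higher and 3 were lower than in undifferentiated cells in both conditions (15.5% and 23.6% of all genes in GCSF, 10.2% and 15.2% in IL3). None of the 7 had a mean above 1511, which *Snai3* reached at IL3-OHT 2h, the low point of *Gfi1*. Within the conditions *Snai3* did not run opposite to *Gfi1*, with r = 0.21 in GCSF and -0.03 in IL3.

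The genes whose means over the 54 combinations of condition and time point were most like *Gfi1* were sought among 12297 genes by Pearson's r of log2 values, and 27 had an r over 0.9. *Myb*, a transcription factor of progenitor cells, *Trim45* and *Mfn2*, a mitochondrial fusion protein, led with r = 0.95 each, followed by *Tnfaip8* (0.94), *Asrgl1*, *Armt1*, *Gnpat* and *Cerk* (0.93 each) and *Sptbn1* and *Ankmy2* (0.92 each). *Myb* held r = 0.87 over the 28 GCSF means and 0.91 over the 26 IL3 means. The lowest values were those of *Mapk1ip1l* (-0.94), *Lyrm1* (-0.93) and *Eea1*, *Tmem120a* and *Cltc* (-0.92 each). They came more from IL3 than from GCSF, since *Mapk1ip1l* was at -0.94 in IL3 and -0.63 in GCSF. Among the 10 highest, r was weaker in GCSF too, as for *Ankmy2* (0.60 in GCSF and 0.89 in IL3). The exception was *Gnpat* (0.89 in GCSF and 0.88 in IL3). The median of r over all genes was -0.02. *Gfi1b* was at -0.24, and its own values ran from -0.46 (*Runx1*) to 0.43 (*Dhrs7b*), which with 15 reads in all is no finding.

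**Figure D5:**
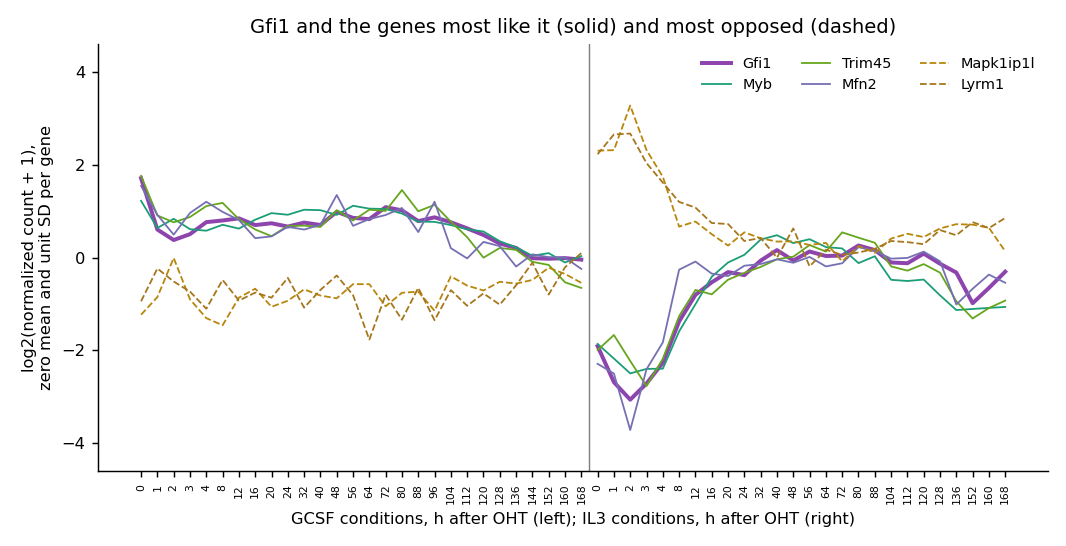
Standardized log2 means over time in GCSF and IL3 for *Gfi1*, the 3 genes of the most similar pattern, *Myb*, *Trim45* and *Mfn2* (solid), and the 2 of the least similar, *Mapk1ip1l* and *Lyrm1* (dashed). The solid lines share the high start in GCSF and the early low in IL3, and r with *Gfi1* over 54 means is 0.95 for each of the 3 and -0.94 and -0.93 for the dashed ones.

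Genes near the members had other courses. Within 100 kb of *Gfi1* the annotation holds 8 genes, of which 2 were tested, *Rpap2* (r = 0.37) and *Evi5* (r = -0.31). *Rpap2* had means of 175.02 in undifferentiated cells and 209.3 at GCSF 0h, and *Evi5* 366 and 354, while *Gfi1* went from 1034 to 9116. The antisense transcript A430072P03Rik, on the plus strand of chromosome 5 from 107725157 to 107728801, overlaps the 5′ end of *Gfi1*. It was not analysed here, and as the sources used here do not give the strand setting of the counting, its reads and those of *Gfi1* in the overlap cannot be told apart. Around *Gfi1b*, 5 of 9 genes were tested, and *Tsc1* (694 to 1573) and *Gtf3c5* (444 to 783) had group means well above the floor throughout. *Ralgds* had group means from 1.74 to 344, while *Cel* and *Ak8* had groups at 0 and at most 15 and 7 reads in a library.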

How the data were processed

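RNA-Seq libraries of PUER cells were assigned to condition, time point and replicate by their labels. GCSF 0h titles name OHT, but by their descriptions no OHT had been added yet, which was followed here. The authors quantified transcripts with Salmon (selective alignment, GRCm38) and divided counts by DESeq2 size factors, so the deposited values are normalized signal (normalized counts of 36255 genes). Dividing by the value of 1 read (0.652 to 1.84) gave back whole reads (100% within a relative 1e-06). Depth was 14600246 to 33147945 reads, which limits low genes.

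The tests took 17414 genes that reached a normalized count of 5 in some library, without IL3-OHT 96h and 144h. limma 3.58.1 in R 4.3.3 (lmFit with 1 mean per group, eBayes with trend, pseudocount 1) gave all comparisons, with Benjamini-Hochberg adjustment per comparison, and was tested on simulated data. Alternatives were pseudocounts of 0.5 and 5, no filter, a mean of at least 10, upper-quartile scaling, each replicate left out, the replicate number as a block, the 2 excluded groups included, edgeR 4.0.16 (quasi-likelihood) and DESeq2 1.42.0 (Wald) on recovered reads. Pearson's r and figures used Python 3.11.15 with numpy 2.4.6, pandas 2.3.3 and matplotlib 3.10.9. Gene lists and members were chosen with earlier results of these data known. Up to 6 genes per list were named by size of change, the 10 most and 5 least similar genes by r, and further list genes after their values were seen. The lists were used without 1 gene that is not reported here, and other list genes without a value in the text enter the counts. Promoter stretches and motifs were read from RefSeq.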

Additional observations from a re-analysis of the deposited data

Results flagged for a closer look

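IL3-OHT 96h and 144h lie outside the tests because the authors excluded them, and no test against undifferentiated cells is given for either. Their *Gfi1* means, 2516 at 96h and 1449 at 144h, were above that of undifferentiated cells (1034). Each stood below both of its neighbours in time, and the cause was not tested.

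The change of *Gfi1* since the addition of OHT differed between the cytokines, by limma's interaction term. It was lower in GCSF than in IL3 by 1.25 on the log2 scale at 8h (-1.25, adjusted p = 2.22e-26), by 2.48 at 80h (-2.48, adjusted p = 3.38e-51) and by 2.91 at 168h (-2.91, adjusted p = 2.77e-58). The starts differ, since GCSF 0h had the pre-treatment and undifferentiated cells did not, and the OHT dose differs too, so that the cytokine, the start and the dose cannot be told apart.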

How the results depend on the processing

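Under 12 alternatives, the log2 change of *Gfi1* kept its direction and its call in the pre-treatment (3.07 to 3.21), the endpoints in GCSF (1.56 to 1.66) and IL3 (1.34 to 1.42), the OHT course in GCSF (-1.59 to -1.48) and GCSF against IL3 (1.04 to 1.11). The replicate numbers share no more than a number (r of same-numbered deviations -0.04 to 0.03), and with the replicate number as a block the pre-treatment change was again 3.14 and the number of genes called 5871 instead of 5861. Upper-quartile scaling moved the fold of GCSF-OHT 72h against GCSF 0h to -0.58, past the threshold, and the median of all genes in the pre-treatment to -0.15 from -0.09. Scaled by library total instead, the ratio of GCSF 0h to undifferentiated cells was 10.6, that of GCSF-OHT 168h to GCSF 0h 0.307 and that of GCSF-OHT 168h to undifferentiated cells 3.25. The most similar genes depended on the scale. Of the 10 with the highest r, 5 were kept with normalized counts and 4 with Spearman's rho, and of the 5 with the lowest, 0 and 2. The cause was not tested. Without a filter, *Gfi1b* was called in 7 comparisons (10 at an unadjusted p under 0.05), which rest on 15 reads.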
